A study of Mus musculus with 30 samples.

Results

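The genes described here are 35 listed cell cycle genes, 18 of mitosis and 17 of DNA replication, followed across the preputial gland of mice that differ in the enzymes that metabolise a carcinogen. Members were taken by gene symbol, with 1 probe set a gene, that of the largest 30-array mean. Of the 35 listed genes, 33 were found among the 18784 genes tested, 17 of mitosis and 16 of replication, and as each of the 33 had a single probe set, the choice between probe sets was never needed. Ccnb1 and Pcna were not analysed here.

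Male mice on the B6 background were wild type (WT), Cyp1a1 knockout (KO) or Cyp1a1/1b1 double knockout (DKO), and all were 6 weeks old when feeding began. Benzo[a]pyrene (BaP), a polycyclic aromatic hydrocarbon of smoke that becomes a mutagen once oxidised by enzymes such as those of the Cyp1 family, was given in the food at about 12.5 mg/kg/day. The tissue was the duct of the preputial gland, a modified sebaceous gland, taken at weeks 0, 4, 8, 12 and 16. There were 2 mice, and 2 arrays, in each of the 15 groups, so each genotype had 2 arrays at week 0 and 8 arrays on BaP. Week 0 was the only time without BaP, so exposure and age increased together and cannot be told apart. The design asks how the genotypes and the durations differ while squamous cell carcinoma forms in the duct. Values are log2 intensities, on which a difference of 1 is a doubling, and differences are given with the standard error (SE) of the fit. The gland is a bulk sample, in which fewer cycling cells and less RNA of these genes per cell cannot be told apart.

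Before a cell copies its DNA, Cdc6 and Cdt1 load the ring-shaped Mcm helicase at origins, and cyclin E (Ccne1, Ccne2) with its kinase helps to start S phase. The helicase becomes active when Cdc45 and the GINS complex join it, while ribonucleotide reductase (Rrm1, Rrm2) and thymidylate synthase (Tyms) make the DNA building blocks. In mitosis, cyclins A and B with Cdk1, the Aurora and Polo kinases, the Bub checkpoint proteins, the kinesins and the ubiquitin ligase partners Cdc20 and Ube2c drive chromosome segregation, and Foxm1 switches on many of these genes. In sebaceous glands and ducts, division is a property of the basal layer, and cells leave the cycle as they fill with lipid or keratinise.

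The promoters of many replication genes are known to be bound by E2F factors, and those of many mitosis genes, through the CHR element and CCAAT boxes, by the MuvB complexes and NF-Y. Promoter sequences from RefSeq (GRCm38.p6), running from 250 bases before to 50 bases after the start, were matched for 27 of the 35 listed genes, in 28 promoters because Mcm7 has 2. The CHR letters TTTGAA, searched on both strands, were in 10 of the 14 mitosis promoters, in 2 of the 14 replication promoters and in 17.9% of all 32851 promoters. The E2F letters TTTGGCGC, TTTCCCGC, TTTGCCGC or TTTCGCGC, on either strand and free to overlap each other, were in 1 of 14 mitosis promoters, that of Cdk1, in 6 of 14 replication promoters and in 2.26% of all promoters. A CCAAT box was in 12 of 14 mitosis and 10 of 14 replication promoters, and in 37.4% of all. These are matches of letters, not sites of binding. The following 5 stretches of 250 bases before the start are shown 5′ to 3′ on the strand of the gene, because these genes stand for the patterns below: a CHR with CCAAT boxes (Ccnb2, Top2a), E2F letters in a gene that was lower (Mcm6) and in one that was not called (Mcm5), and neither CHR nor E2F letters (Rrm2). Capitals mark CHR, E2F or CCAAT letters on either strand.
Ccnb2, chr9:70421555-70421804, minus strand: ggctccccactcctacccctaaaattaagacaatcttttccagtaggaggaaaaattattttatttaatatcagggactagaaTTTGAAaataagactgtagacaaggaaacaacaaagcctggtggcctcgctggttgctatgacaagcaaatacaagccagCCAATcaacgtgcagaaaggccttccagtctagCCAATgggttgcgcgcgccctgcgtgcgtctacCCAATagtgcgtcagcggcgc
Top2a, chr11:99024190-99024439, minus strand: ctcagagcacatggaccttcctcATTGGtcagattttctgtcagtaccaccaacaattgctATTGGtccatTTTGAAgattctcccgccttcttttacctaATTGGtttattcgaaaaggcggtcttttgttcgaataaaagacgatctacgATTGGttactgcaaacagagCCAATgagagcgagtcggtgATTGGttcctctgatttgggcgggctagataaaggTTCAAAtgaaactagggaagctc
Mcm6, chr1:128359706-128359955, minus strand: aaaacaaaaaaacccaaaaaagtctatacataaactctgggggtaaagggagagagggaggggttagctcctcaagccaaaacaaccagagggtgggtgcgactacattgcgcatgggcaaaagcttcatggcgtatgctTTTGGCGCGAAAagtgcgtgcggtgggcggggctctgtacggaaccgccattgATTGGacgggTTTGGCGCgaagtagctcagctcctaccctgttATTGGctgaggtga
Mcm5, chr8:75109259-75109508, plus strand: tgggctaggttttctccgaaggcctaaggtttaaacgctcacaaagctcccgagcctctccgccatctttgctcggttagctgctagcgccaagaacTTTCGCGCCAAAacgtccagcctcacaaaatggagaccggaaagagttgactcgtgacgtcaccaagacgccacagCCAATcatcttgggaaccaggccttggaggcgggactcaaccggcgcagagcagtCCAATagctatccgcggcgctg
Rrm2, chr12:24708004-24708253, plus strand: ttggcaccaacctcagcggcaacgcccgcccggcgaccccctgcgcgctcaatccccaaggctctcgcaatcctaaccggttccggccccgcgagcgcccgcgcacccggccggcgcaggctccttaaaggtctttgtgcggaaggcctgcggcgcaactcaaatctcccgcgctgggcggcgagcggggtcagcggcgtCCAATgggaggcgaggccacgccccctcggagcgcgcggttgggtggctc

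The arrays did not all have the same spread of values, which bears on every comparison with DKO. The log2 values of an array had a standard deviation of 1.15 to 1.42 on 9 arrays and of 1.70 to 2.08 on the other 21. The 9, called low-range here, were 8 of the 10 labelled DKO, all but week 0 replicate 1 and week 12 replicate 2, and KO week 12 replicate 2. Across genes they correlated with the other arrays at a median of 0.797, against 0.975 among the other arrays. The number in each array's label ran from 1 to 10 in WT, from 11 to 19 with 30 in KO, and was 20 or between 22 and 33 in DKO. What it counts is not stated, and number range and DKO are nearly the same split. Cyp1b1 signal was 6.17 to 6.77 in WT, 6.66 to 8.82 in KO and 7.48 to 10.57 in the arrays labelled DKO, which goes against the second deletion, although which part of the gene the probes read is not known. DKO below stands for the arrays so labelled. Cyp1a1 signal overlapped in all 3 genotypes, at 4.26 to 4.74, 3.67 to 4.80 and 3.96 to 6.14. No arrays held identical values. The gland was recognisable by its sebocyte genes, whose median log2 signal over 9 genes was 8.20 to 8.80 on the WT arrays.

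Read against their own means over all 30 arrays, the cycle genes were highest in WT and lowest in the arrays labelled DKO. The median deviation of the 17 mitosis genes ran from -0.09 to 0.74 over the WT arrays, from -0.46 to 0.27 over KO and from -0.85 to 0.08 over DKO. For the 16 replication genes the ranges were 0.02 to 0.96, -0.20 to 0.21 and -0.45 to 0.02. In KO the lowest mitosis median, -0.46, was that of the low-range array of week 12, and its partner of the same week stood at 0.27. In DKO both arrays of normal range, at week 0 and week 12, stood nearest to 0, at -0.09 and 0.08 for mitosis and at 0.02 and -0.0045 for replication. The 8 low-range DKO arrays lay between -0.85 and -0.30 for mitosis and between -0.45 and -0.20 for replication.

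**Figure D1:**
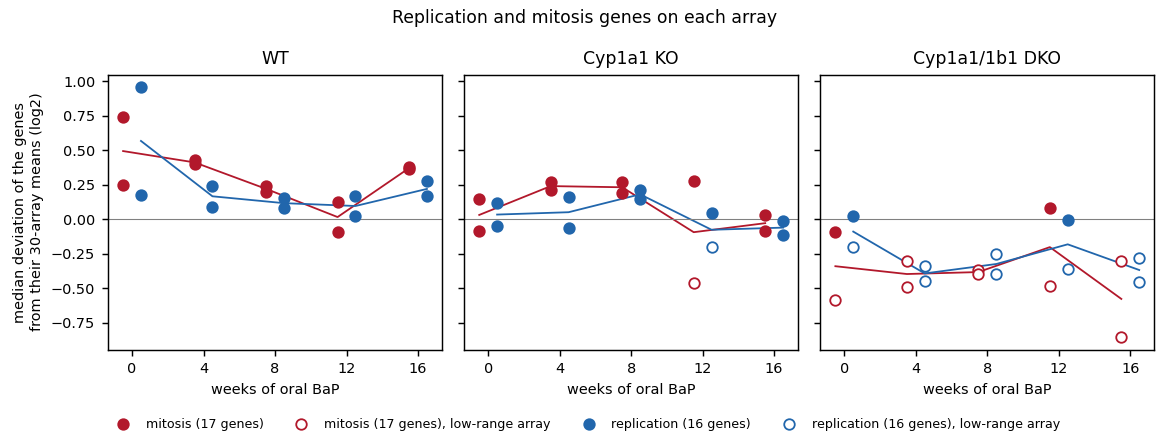
Median log2 deviation of the 17 mitosis and 16 replication genes from their 30-array means, by week of BaP, for each array of WT, KO and DKO (points) with the mean of each week's 2 arrays (lines); open points are low-range arrays. WT week 0 replicate 2 stands highest, at 0.74 and 0.96, and DKO week 16 replicate 1 lowest for mitosis, at -0.85.

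In WT, 32 of the 33 genes had lower means over weeks 4 to 16 than at week 0, but 1 array of week 0 carried this difference. The median difference was -0.26 for mitosis and -0.37 for replication genes, against 0.03 over all genes, and all 10 Mcm, Gins and Rrm genes were lower, with a median of -0.45. No member was called by limma (adjusted p under 0.05 over all 18784 genes), none had an unadjusted p under 0.05, and the share of all genes called was also 0%. With quantile normalization 29 of 33 were lower, and with each array centred on its median 32 were. WT week 0 replicate 2 was the highest of the 10 WT arrays in 25 of the 33 genes, 12 of mitosis and 13 of replication, whereas it was the highest for 17.4% of all genes. Without it, 16 of 33 genes were lower, and the medians were 0.07 for mitosis and -0.0030 for replication. Without week 0 replicate 1 instead, 31 were lower, with medians of -0.53 and -0.72.

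Single genes show the same array. Gins1, a subunit with Gins2 of the GINS complex, stood at 6.19 and 7.66 in the replicates of WT week 0. Over the 8 WT arrays on BaP it had a lowest value of 5.78, a median of 6.02 and a highest of 7.27. The high values were week 0 replicate 2 and week 12 replicate 1, and the other WT arrays lay at or below 6.27. Gins2 stood at 7.61 and 8.79 at week 0 and between 7.39 and 8.77 on BaP, and the same pair of arrays was highest. Mcm6, a helicase subunit, was 7.17 and 8.05 at week 0 against 6.65 to 7.33 on BaP, so that replicate 2 alone stood above every other WT array. Mcm7 stood at 5.52 and 6.83 at week 0, and its 8 later values filled only 5.57 to 5.86. Mki67, the gene of the proliferation antigen Ki-67, went the other way. It was 7.64 and 6.68 at week 0, where replicate 2 was the low one, and 6.66, 7.93 and 8.09 were its lowest, median and highest values on BaP. Its 2 lowest BaP values were those of week 12, 6.66 and 6.86, and Foxm1 was also lowest there, at 5.88 and 6.12 against 6.72 to 7.13 at the other BaP weeks. WT week 12 replicate 2 was the lowest WT array in 15 of the 33 genes, against 6.11% of all genes. With both WT week 0 replicate 2 and WT week 12 replicate 1 left out, a setting chosen after seeing the data, 17 of 33 genes were lower on BaP.

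**Figure D2:**
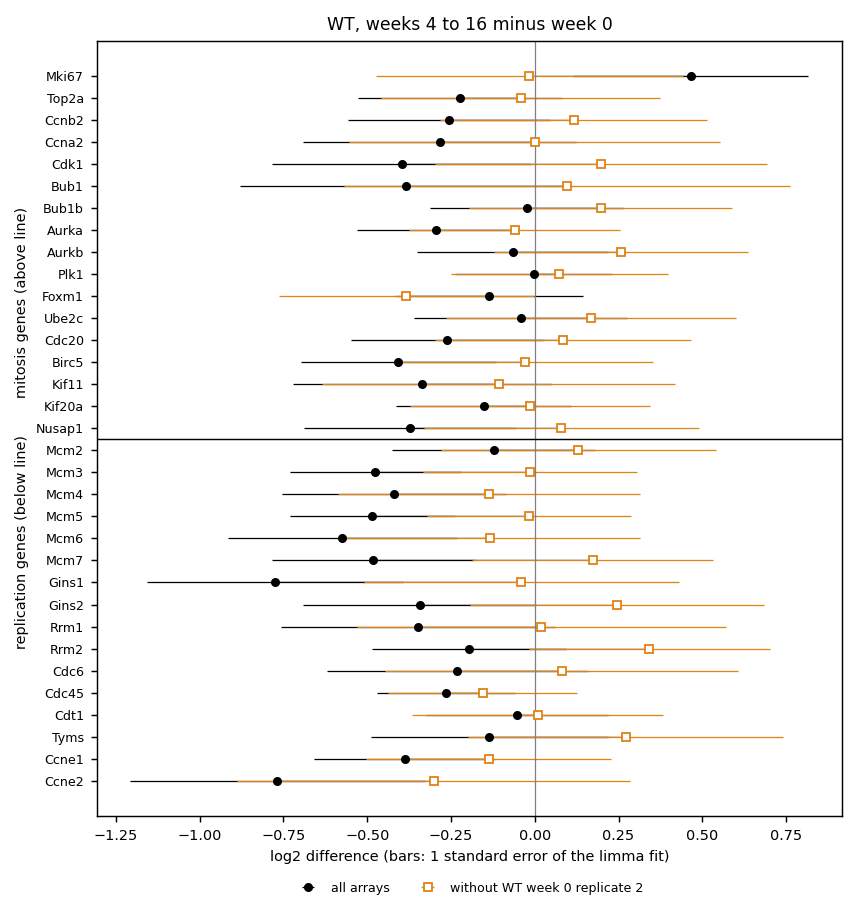
WT log2 difference of weeks 4 to 16 from week 0 for each gene, with all arrays (filled) and without WT week 0 replicate 2 (open squares); bars are 1 SE of the limma fit. The replication genes move from a median of -0.37 to -0.0030 and the mitosis genes from -0.26 to 0.07.

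At week 16 against week 0 in WT, 24 of 33 genes were lower (0 called, 0 with an unadjusted p under 0.05 by limma, and 0% of all genes called), including all 10 Mcm, Gins and Rrm genes. Mki67 was the highest difference, at 0.60 ± 0.44, and Ccne2 the lowest, at -1.10 ± 0.55.

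In KO, oral BaP was accompanied by no common shift of these genes. Over weeks 4 to 16, 15 of 33 were lower than at week 0, the medians were 0.05 for mitosis and 0.02 for replication against -0.03 over all genes, and none was called by limma (0% of all genes called, 0 members with an unadjusted p under 0.05). At week 16 the count was 22 of 33 lower, with medians of -0.14 and -0.08, again with 0 called and 0% of all genes called, and 1 member, Gins2, had an unadjusted p under 0.05. Gins2 in KO was 6.44 and 6.74 at week 0, between 6.39 and 7.27 at weeks 4 to 12, and 5.56 and 5.30 at week 16. Both week 16 arrays were below the other 8, but the difference of -1.16 ± 0.44 from week 0 was not called, and the adjusted p was 1.00. Ccne2 in KO stood at 7.43 and 6.30 at week 0, and the arrays on BaP, from 5.96 to 7.10, lay on both sides of the lower one.

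Gins2 was the single gene of the list called between KO and WT on BaP. The lowest, median and highest of the 8 WT arrays on BaP were 7.39, 7.84 and 8.77, and those of the 8 KO arrays 5.30, 6.77 and 7.27. Every KO array was below every WT array, and the same held at week 0, where WT stood at 7.61 and 8.79 and KO at 6.44 and 6.74. On BaP the difference was -1.35 ± 0.22, or 2.55-fold lower in KO (limma adjusted p = 0.00257). The adjusted p ranged from 3.7e-05 to 0.164 over the alternatives, and the call was lost with quantile normalization, where the difference was -1.08. It was the 1 member called of 33, beside 1.5% of all genes called and 1.39% called lower. Members lower without overlap were Gins2 and Ube2c, 2 of 33, against 1.43% of all genes. Ube2c, the conjugating enzyme that works with the anaphase-promoting complex, was 6.41, 6.76 and 7.09 in WT and 5.62, 6.11 and 6.39 in KO, and its difference of -0.73 ± 0.20 had an adjusted p of 0.0703. It was called in the fits without the low-range arrays, at -0.63 with an adjusted p of 0.00218, among 5 members called there: Gins2, Ube2c, Foxm1 at -0.45, Ccnb2 at -0.42 and Plk1 at -0.35. In that fit 6.72% of all genes were called lower.

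Over all 33 genes KO was lower than WT in 26 on BaP, with medians of -0.21 for mitosis and -0.10 for replication against 0.08 over all genes, and 6 members had an unadjusted p under 0.05, 5 of mitosis and 1 of replication. With quantile normalization 20 of 33 were lower. Sebocyte genes moved in the same comparison: 2 of 9, Mc5r and Elovl3, were called lower and the list median was -0.50, and the 8 basal keratinocyte genes were all lower, with none called and a median of -0.35. Their part in the result was not tested. Elovl3, a fatty acid elongase of sebocytes, was also high in the 2 WT arrays with high Gins2, at 8.02 in week 0 replicate 2 and 8.20 in week 12 replicate 1. The sebocyte list as a whole was not high there. Its median over the 9 genes was 8.47 and 8.20 on these arrays, against 8.80 and 8.20 on their partners of the same week. At week 0, KO was lower than WT in 29 of 33 genes and in all 10 Mcm, Gins and Rrm genes, yet limma called none (0% of all genes called, 3 members with an unadjusted p under 0.05). Gins2 had the largest difference there, -1.61 ± 0.44. Without WT week 0 replicate 2 it was -1.02, 22 of 33 genes were lower, Mcm5 and Rrm2 were higher in KO, by 0.018 and 0.23, and the medians moved from -0.34 to -0.092 for mitosis and from -0.60 to -0.17 for replication. In the fit without the low-range arrays Gins2, Aurkb at -0.75 and Foxm1 at -0.71 were called lower at week 0, beside 7.46% of all genes, and 1 member was called with array weights and in the fit of both genotypes alone.

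**Figure D3:**
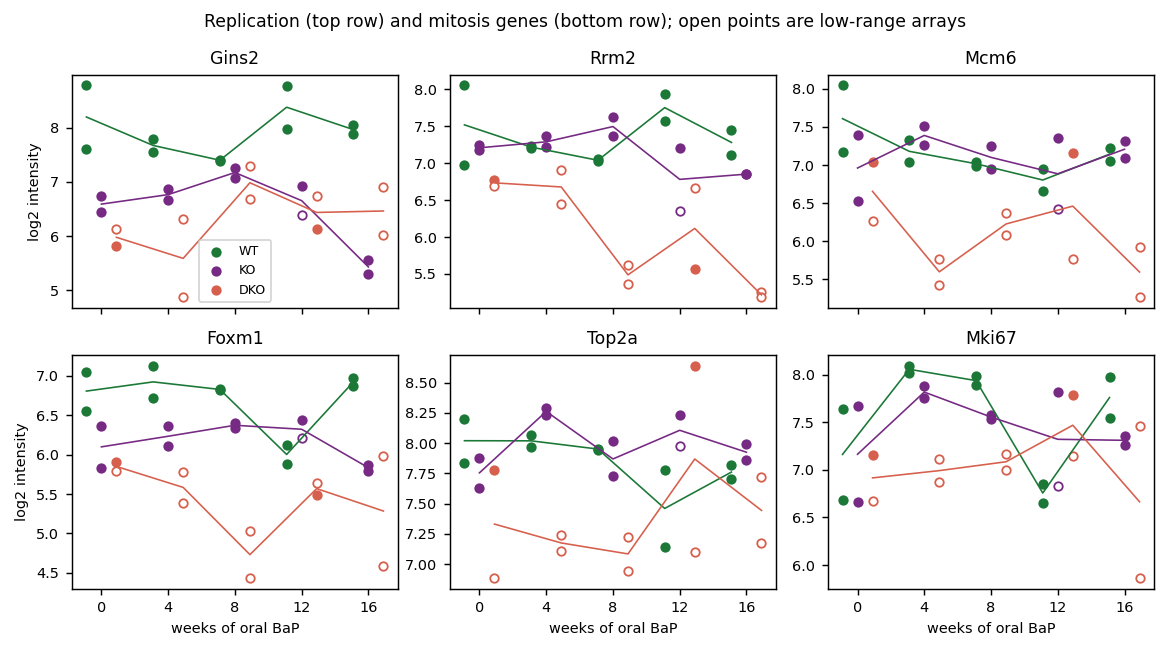
Log2 intensity of 3 replication and 3 mitosis genes on each array by week of BaP and genotype; lines join the means of the 2 arrays and open points are low-range arrays. Gins2 is at 7.39 or more on every WT array and at 7.29 or less on every KO and DKO array.

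Gins2 was also lower in the arrays labelled DKO than in WT. They stood at 5.83 and 6.13 at week 0, and at a lowest of 4.87, a median of 6.50 and a highest of 7.29 on BaP. All 10 were below the lowest WT array, including both of normal range, week 0 replicate 1 at 5.83 and week 12 replicate 2 at 6.13. At week 0 the difference from WT was -2.22 ± 0.44 (4.66-fold, limma adjusted p = 0.0123), and on BaP it was -1.49 ± 0.22 (2.80-fold, adjusted p = 8.6e-06). KO and DKO overlapped on BaP, with a difference of -0.14 ± 0.22 and an adjusted p of 0.597.

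At week 0, before any BaP, 31 of 33 genes were lower in the arrays labelled DKO than in WT, with medians of -0.75 for mitosis and -0.76 for replication against 0.19 over all genes. Without WT week 0 replicate 2, 26 were lower and the medians were -0.53 and -0.23, and without DKO week 0 replicate 2, 29 were lower with -0.46 and -0.57. Limma called 2, beside 3.9% of all genes called and 3.2% called lower: Gins2, and Ccnb2, a B-type cyclin of the mitotic kinase. Ccnb2 stood at 7.25 and 8.00 in WT, at 6.96 and 6.98 in KO and at 6.46 and 5.33 in DKO, where the lower value is the low-range array. Its difference from WT was -1.73 ± 0.38 (3.32-fold, adjusted p = 0.0164). Neither call remained without WT week 0 replicate 2, where Gins2 had a difference of -1.63 and Ccnb2 of -1.36, with adjusted p of 0.311 and 0.325. Over the alternatives the adjusted p ranged from 0.00246 to 0.357 for Gins2 and from 0.000804 to 0.471 for Ccnb2. In the fit without low-range arrays, where 1 DKO array is left at week 0 and is assumed to vary like the other groups, 6 members were called lower, Ccnb2, Aurkb, Foxm1, Ube2c, Gins2 and Cdc45, beside 6.12% of all genes. Between DKO and KO at week 0, 27 of 33 were lower in DKO, with medians of -0.42 and -0.17. Without DKO week 0 replicate 2, the low-range array, 22 were lower and the medians were -0.083 and -0.0039. None was called (0% of all genes), and 1 member had an unadjusted p under 0.05.

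Within DKO, the mitosis and replication genes had different medians over weeks 4 to 16 against week 0, at 0.06 and -0.36, with 0.04 over all genes. Limma called no member, against 0.974% of all genes, and 5 members had an unadjusted p under 0.05, which is 15.2% of them against 16.2% of all genes. The gap between both medians depended on the setting. The medians were 0.35 and -0.03 with the label number range as a block, 0.38 and 0.06 without DKO week 0 replicate 1, and -0.38 and -0.35 without DKO week 0 replicate 2. With week 12 replicate 2 against week 0 replicate 1, the pair of DKO arrays of normal range, they were 0.16 and -0.04.

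At week 16 against week 0, Rrm2 was the 1 member called in DKO, where it was lower, beside 4.04% of all genes called and 2% called lower. Other members were lower without being called, among them Bub1 at -1.39 and Ccna2 at -1.29. Rrm2 is the small, cell-cycle-regulated subunit of ribonucleotide reductase. It stood at 6.78 and 6.69 at week 0, at 6.91 and 6.45 at week 4, at 5.36 and 5.62 at week 8, at 6.67 and 5.56 at week 12, and at 5.25 and 5.18 at week 16. The week 8 and week 16 values all lay below those of weeks 0 and 4, and so did the week 12 array of normal range, at 5.56. The change at week 16 was -1.52 ± 0.37 (2.86-fold, limma adjusted p = 0.0257), and the adjusted p ranged from 0.00438 to 0.942 over the alternatives. The call was lost with array weights, in a fit of DKO alone, with the number range as a block, within the higher number range, and without DKO week 0 replicate 1 or week 16 replicate 1. With quantile normalization 7 members were called lower at week 16 and 1, Cdk1, higher at 2.30. The share of all genes called in that setting is not given here, so the count is not read as a result about these genes. Cdk1, the mitotic kinase, stood at 5.56 and 4.72 at week 0 and at 5.80 and 7.61 at week 16, where only replicate 2 was high, and its difference of 1.56 ± 0.49 in the deposited scale was not called (adjusted p = 0.0688). Of the 33 genes 12 had an unadjusted p under 0.05, which is 36.4% against 22.1% of all genes.

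On BaP, 21 of the 33 genes were called lower in the arrays labelled DKO than in WT and none was called higher, in a comparison in which most of the measured genes differed. The 21 were 11 of 17 mitosis and 10 of 16 replication genes. Of all genes 71.5% were called and 30% were called lower. Among the genes whose mean signal was at least that of the median gene, tested on their own, 57.9% were called lower, and 28 of the 33 members, including all 21 called, had such a mean. The median difference was -0.73 for mitosis and -0.49 for replication, and 0.19 over all genes. That last value was 0.06 both with quantile normalization, where the medians were -0.52 and -0.45 and 26 of 33 genes were lower, and with median centring, where they were -0.86 and -0.62 and 31 were lower. Every DKO array was below every WT array in 4 genes, Aurkb, Gins2, Rrm1 and Rrm2, against 13.1% of all genes. Of the 8 DKO arrays behind these values 7 are low-range, and the genotype and the number range cannot be told apart: with the range as a block, which rests on the few groups that hold both ranges, no member was called and the medians were -0.03 and -0.27.

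Among the replication genes the differences were uneven within complexes. Mcm6 was 6.65, 7.04 and 7.33 (lowest, median, highest) in WT and 5.26, 5.85 and 7.16 in DKO, where all 7 low-range arrays lay at or below 6.37 and the array of normal range, week 12 replicate 2, was within WT at 7.16. Its difference was -1.07 ± 0.22 (2.10-fold, limma adjusted p = 0.000203). Of the other helicase subunits, Mcm4 differed by -0.51 and Mcm2 by -0.47, both called, while Mcm3 at -0.09, Mcm7 at -0.06 and Mcm5 at 0.06 were not. Without low-range arrays, at week 12 alone, Mcm4 was 0.36 and Mcm6 0.36, and under the number-range block Mcm4 was 0.51, each with its sign turned. With quantile normalization Mcm3 was called lower, at -0.51, and Mcm2 and Mcm4 were not called. Gins1 differed by -1.03 ± 0.24, with DKO values of 4.32, 5.14 and 6.03 overlapping WT values of 5.78, 6.02 and 7.27.

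Both subunits of ribonucleotide reductase were lower. Rrm1 was 6.90, 7.26 and 7.58 in WT and 4.98, 5.70 and 6.87 in DKO, and Rrm2 was 7.03, 7.22 and 7.94 against 5.18, 5.59 and 6.91. Neither overlapped, although the week 12 array of normal range had the highest Rrm1 of DKO, 6.87, and a low Rrm2, 5.56. The differences were -1.46 ± 0.26 and -1.45 ± 0.18, or 2.76-fold and 2.73-fold (limma adjusted p = 5.4e-05 and 1.67e-06). Tyms differed by -0.85, cyclin E1 (Ccne1) by -0.80 and the helicase activator Cdc45 by -0.44, all called. The origin-loading factors were not called: Cdc6 was 0.34 ± 0.25 higher (adjusted p = 0.212) and Cdt1 0.24 ± 0.17 (adjusted p = 0.221). Cyclin E2 (Ccne2) differed by -0.36 ± 0.28, with an adjusted p of 0.247.

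Among the mitosis genes, Ccna2 and Foxm1 had the largest differences. Ccna2, the A-type cyclin of S phase and early mitosis, was 6.84, 7.59 and 7.84 in WT and 4.98, 6.08 and 6.94 in DKO. The ranges overlapped through the DKO array of normal range alone, at 6.94, and the difference was -1.46 ± 0.26 (2.76-fold, limma adjusted p = 5.18e-05). Foxm1 was 5.88, 6.83 and 7.13 in WT and 4.44, 5.44 and 5.98 in DKO, an overlap that comes from WT week 12 replicate 1 alone, at 5.88. Its difference was -1.37 ± 0.18 (2.59-fold, adjusted p = 2.06e-06). Under the number-range block Ccna2 was 0.24. Ccnb2 differed by -0.85, and Cdk1, the kinase these cyclins bind, by -0.03 ± 0.24 (adjusted p = 0.918).

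The other mitotic regulators were split. Aurkb, the kinase of the chromosomal passenger complex, was 5.87, 6.17 and 6.53 in WT and 4.09, 4.89 and 5.79 in DKO, with no overlap and a difference of -1.23 ± 0.18 (2.35-fold, limma adjusted p = 7.66e-06). Birc5, another subunit of that complex, differed by -0.93 and was called, while Aurka, the kinase of the spindle poles, differed by 0.02 ± 0.15 (adjusted p = 0.886). Of the checkpoint proteins, Bub1b differed by -1.07 and was called, and Bub1, at -0.67 ± 0.31, was not (adjusted p = 0.0605). Ube2c differed by -0.80 and was called, and Cdc20, which works on the same ligase, differed by 0.01 ± 0.18. The spindle proteins Nusap1 at -0.85, Kif11 at -0.73 and Kif20a at -0.45 were called, and the Polo kinase Plk1, at -0.31, was not. With median centring 3 further members, Top2a, Bub1 and Plk1, were called lower. Without low-range arrays, at week 12 alone, Kif11 was 0.36, Nusap1 0.13 and Bub1b 0.064, and with the number range as a block Kif11 was 0.64 and Kif20a 0.092, so these signs depended on the setting.

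Top2a and Mki67, both much used to mark cycling cells, also had differences whose sign depended on the setting. Top2a, the topoisomerase that untangles chromosomes, was 7.15, 7.88 and 8.07 in WT and 6.94, 7.20 and 8.64 in DKO, where its highest value was the array of normal range. Its difference from WT was -0.40 ± 0.19 in the deposited values (limma adjusted p = 0.0649) and 0.63 with quantile normalization (adjusted p = 0.00448). Mki67 was 5.86, 7.13 and 7.79 in DKO against 6.66, 7.93 and 8.09 in WT, a difference of -0.57 ± 0.22 (adjusted p = 0.0254), and 0.30 with quantile normalization (adjusted p = 0.337). Without the low-range arrays the comparison is DKO week 12 replicate 2 against the 2 WT arrays of week 12. There Top2a was 1.18 ± 0.25 higher in DKO (adjusted p = 0.00260), Cdc6 1.13 and Mki67 1.03, all 3 called, beside 17.3% of all genes called higher. Gins2 at -2.25, Rrm2 at -2.19, Gins1 at -1.73, Ccne1 at -0.82 and Cdc45 at -0.58 were called lower there, all of them replication genes, beside 13.8% of all genes. WT week 12 is also the time at which WT Mki67 was low, at 6.66 and 6.86. WT week 12 replicate 1 was high for some of the genes called lower: Gins1 was 7.27 in it and 6.05 in its partner, against 4.93 in the DKO array, Gins2 was 8.77 and 7.99 against 6.13, and Rrm2 7.94 and 7.57 against 5.56. The lone DKO array has no replicate in that comparison.

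**Figure D4:**
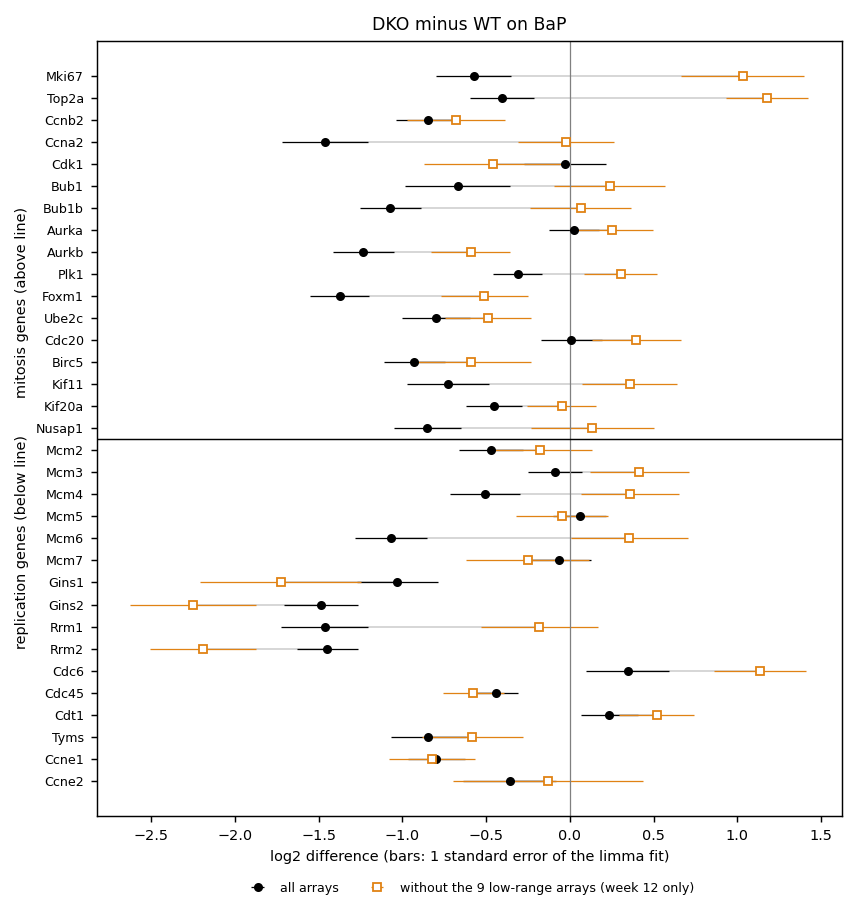
Log2 difference between DKO and WT on BaP for each gene, with all arrays (filled, weeks 4 to 16) and without the 9 low-range arrays (open squares, week 12 with 1 DKO array); bars are 1 SE of the limma fit. Gins2 and Rrm2 are at -1.49 and -1.45 with all arrays and at -2.25 and -2.19 without the low-range arrays. Mki67 and Top2a are both below 0 with all arrays and both above 0 without the low-range arrays.

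The arrays labelled DKO were also compared with KO on BaP, and 17 members were called lower, 10 of mitosis and 7 of replication, with none higher, beside 58.9% of all genes called and 25.4% called lower. The medians were -0.59 for mitosis and -0.38 for replication, against 0.15 over all genes, and no member was free of overlap between the 8 and 8 arrays (1.75% of all genes were). Ccna2 at -1.41, Rrm1 at -1.37, Rrm2 at -1.23 and Mcm6 at -1.18 had the largest differences, with limma adjusted p of 0.000173, 0.000236, 3.12e-05 and 0.00018. Top2a was called here at -0.65 ± 0.19 (adjusted p = 0.00734), and it was 0.22 with quantile normalization. Without low-range arrays only week 12 is left, with 1 array on each side, DKO replicate 2 and KO replicate 1. Top2a was 0.41 higher in that DKO array, Rrm2 differed by -1.64 and Foxm1 by -0.95. The fit called the latter pair lower, beside 7.2% of all genes, but neither side has a replicate and both are assumed to vary like the other groups. Within the higher number range only week 12 can be compared too, the 2 DKO arrays with KO replicate 2, and the medians were 0.12 for mitosis and -0.18 for replication. No member was called there, with 1 array against 2. Ccna2 was 0.32 and Mcm6 0.040 in it, so that their signs were not those of the full comparison.

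The genotypes were not shown to differ in how these genes changed from week 0 to weeks 4 to 16. Limma called no member in the difference of changes between KO and WT, DKO and WT, or DKO and KO, and no member had an unadjusted p under 0.05 in any of them. The shares of all genes called were 0%, 0.0373% and 0.0426%. Between KO and WT 27 of 33 differences of change were above 0, including all 10 Mcm, Gins and Rrm genes, with medians of 0.21 and 0.36 for mitosis and replication. These rest on the same week 0 arrays as the WT change. Without low-range arrays the DKO change is that of 1 array, week 12 replicate 2, from 1 array, week 0 replicate 1, set against the WT change from week 0 to week 12. Top2a was the 1 member called there, at 1.42 (limma adjusted p = 0.0392), with the spread of both single arrays assumed from the other groups.

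**Figure D5:**
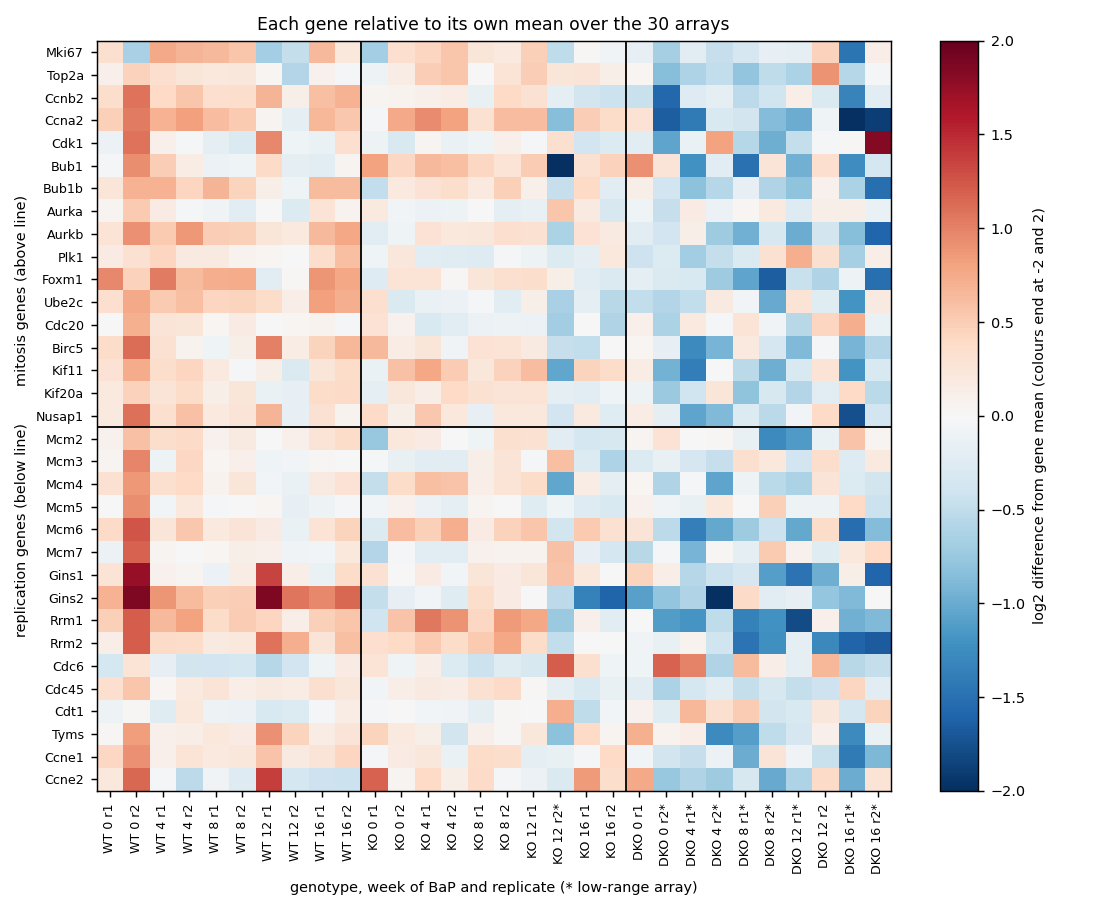
Log2 difference of each of the 33 genes (rows, mitosis above the line and replication below) from its own mean on each of the 30 arrays (columns, by genotype, week and replicate, stars for low-range arrays). WT week 0 replicate 2 is above the mean in all 16 replication genes and 16 of 17 mitosis genes, and most low-range arrays are below it.

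The 2 groups of genes stood close to each other on each array. The mitosis median minus the replication median of the deviations ran from -0.40 to 0.31 over the 30 arrays, with 17 above 0. On BaP its median was 0.11 in WT (8 arrays, 6 above 0), 0.05 in KO (7 above 0) and -0.07 in DKO (2 above 0), and the ranges overlapped, at -0.11 to 0.31, -0.26 to 0.27 and -0.40 to 0.14. The KO array below 0 on BaP was the low-range one, at -0.26, and its partner stood at 0.23. The DKO arrays above 0 were week 12 replicate 2, of normal range, at 0.08, and the low-range week 4 replicate 2, at 0.14. Genotype and low range cannot be told apart in this contrast. The genes of one group differed more from each other than the groups did. In the comparison of DKO with WT the replication genes ran from -1.49 to 0.34 and the mitosis genes from -1.46 to 0.02. Sorted by promoter, the 7 members with E2F letters had a median difference of -0.03 in it, and 1, Mcm6, was called, whereas the 18 matched members without them had a median of -0.76 and 13 were called. Of all genes 71.5% were called in that comparison and 30% were called lower. The members with E2F letters also had lower signal, with a median of the 30-array means of 5.24 against 6.26, and its part in the result was not tested. Among them Cdc6, Cdt1, Mcm3 and Mcm5 had means below that of the median gene. Of the 5 members with such means 0 were called. Mcm7 is counted with E2F letters through 1 of its 2 promoters. Mcm6 and Mcm5, whose stretches are printed above, both hold E2F letters and differed by -1.07 and 0.06.

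Wider lists of genes of both processes were called lower in DKO against WT more often than higher. In that comparison 71.5% of all genes were called in either direction and 30% were called lower. The share called lower was 57.9% among genes of at least median mean signal, tested on their own. Whether the lists stand apart from other genes of like signal was not tested. Of 37 other replication genes 19 were called lower and 3 higher in DKO against WT on BaP, with a median of -0.48. Gins4, another GINS subunit, differed by -3.08 ± 0.38, the primase subunit Prim1 by -1.78, the polymerase delta subunit Pold2 by -1.36 and the clamp loader subunit Rfc2 by -1.34. Pold2 was the 1 gene of this list called in KO against WT on BaP, at -1.13 ± 0.21 (limma adjusted p = 0.00626), beside 1.5% of all genes. It was called with Rfc2 and Prim2 in DKO against WT at week 0, at -2.47, -1.87 and -1.57, beside 3.9% of all genes. Of 44 other mitosis genes 15 were called lower and 2 higher on BaP between DKO and WT, with a median of -0.24. Mad2l1, a spindle checkpoint protein, differed by -1.80 ± 0.24. Kif18a, a kinesin of chromosome alignment, was the only gene of either list called over weeks 4 to 16 within DKO, at -1.47 ± 0.32 (adjusted p = 0.0289). Of all genes 0.974% were called in that comparison. Of 29 regulators 14 were called lower and 5 higher between DKO and WT, with a median of -0.38, among them the G1 kinases Cdk4 at -1.73 and Cdk6 at -1.44. Cdk4 was also called at week 0, at -2.54 ± 0.44 (adjusted p = 0.00722), beside 3.9% of all genes.

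Markers of cell types also differed in the comparison of DKO with WT. Most DKO arrays in it were low-range, so genotype and range of values cannot be told apart here. On BaP in DKO against WT, 8 of 9 sebocyte genes were called lower, with a list median of -2.17, and 6 of 8 basal keratinocyte genes, with a median of -1.13. Of all genes 71.5% were called in this comparison and 30% were called lower. Among genes of at least median mean signal, tested on their own, 57.9% were called lower. Krt14, a basal keratin, was 9.98, 10.21 and 10.34 in WT and 7.94, 9.11 and 9.56 in DKO. Of 6 suprabasal keratinocyte genes 4 were called higher, led by Krt1, a keratin of stratified epithelium, with a lowest, median and highest value of 3.71, 3.82 and 4.26 in WT and of 4.93, 10.14 and 11.02 in DKO. The low-range KO array, week 12 replicate 2, had sebocyte, basal and suprabasal list medians of 6.56, 7.15 and 6.61. Its partner of normal range had 8.08, 8.95 and 7.67. The log2 of the summed signal on BaP was 12.91 to 13.38 in WT and 9.42 to 12.47 in DKO for the sebocyte list, 11.73 to 12.31 and 9.97 to 11.49 for the basal list, and 10.38 to 10.53 and 10.73 to 12.73 for the suprabasal list. Neutrophil genes summed to 8.85 to 10.11 in WT and 8.71 to 13.26 in DKO, and lymphocyte genes to 7.37 to 7.85 and 8.11 to 8.92. Their part in the results on the cycle genes was not tested.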

How the data were processed

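RNA from dissected glands was amplified, labelled with biotin and hybridised to 30 arrays, 2 mice in each of 15 groups, per the labels' protocols. The values deposited by the authors are log2 intensities per probe set. The submitters' processing notes name RMA, which corrects background, normalizes by quantiles and summarises probes, with no version, and the annotation build of the probe sets is not given in the sources used here. Arrays as deposited do not share one distribution, with standard deviations from 1.15 to 2.08. Of 21212 probe sets, 18786 carried 1 symbol, 6 several and 2420 had no entry among the platform's annotations. They gave 18784 genes, each by its brightest probe set, and no filter on low values was applied.

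The linear model had 15 group means and 15 contrasts, in limma 3.58.1 and R 4.3.3 (lmFit, eBayes; residual degrees of freedom 15, prior 6.91). All tests had both sides. Benjamini-Hochberg adjustment ran over all genes of a contrast, and called means that the adjusted p was under 0.05. The fit gives each gene 1 spread for all groups. The p-values set each difference against that spread, which pools arrays of low and of normal range. With 2 mice per group, the number of mice limits the precision. The fit was tested on simulated data for DKO weeks 4 to 16 against week 0. It called 13 of 50 genes given a log2 difference of 1, 83 of 100 given 2 in size, and 50 of 50 given 4. It also called 7 unchanged genes. A gene that was not called may thus still differ by 1.

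All 35 members could be named, with up to 4 genes of smallest p in each wider list. Members, lists and tests were chosen with earlier results of these data known. A motif was counted where its letters stood in the window on either strand. Genes with no entry in the promoter table were left out of promoter counts. Replicate numbers did not pair the arrays: over 105 pairs of groups the correlation of deviations ran from -0.55 to 0.67, with a median of -0.02 and 16 over 0.1.

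Alternatives were quantile normalization, median centring, a filter on low values, a robust variance trend, array weights, only the genotypes compared, the replicate block, the label number range as a block or alone, all probe sets averaged, no low-range arrays (standard deviation under 1.5), and each array left out. Another, without WT week 0 replicate 2 and WT week 12 replicate 1, was chosen after seeing the data. Averaging all probe sets could not change the values of the members, as each had 1 probe set, so it is no check on them.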

Additional observations from a re-analysis of the deposited data

How the results depend on the processing

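Counts of members called moved by over 1.5 times as follows. The share of all genes called moves with the setting too. For KO against WT at week 0 it was 0% in the main fit, and 7.46% were called lower without low-range arrays. A count that moved, here or above, is therefore not read as a result about these genes alone. For DKO week 16 against week 0 (1 called) the count was 8 with quantile normalization and 0 with array weights, in a fit of DKO alone and within label numbers 22 to 33. For KO against WT at week 0 (0) it was 1 with array weights and with only the genotypes compared, and 3 within label numbers 1 to 20 and without low-range arrays. For DKO against WT at week 0 (2) it was 0 with quantile normalization, with array weights and without WT week 0 replicate 2 and WT week 12 replicate 1, 1 under the number-range block, and 6 within label numbers 1 to 20 and without low-range arrays. For KO against WT on BaP (1) it was 0 with quantile normalization, 2 with the filter on low values, 3 with array weights, and 5 with only the genotypes compared, within label numbers 1 to 20 and without low-range arrays. For DKO against WT on BaP (21) it was 0 under the number-range block and 8 without low-range arrays. For DKO against KO on BaP (17) it was 10 with quantile normalization, 0 under the number-range block, 0 within label numbers 22 to 33, and 2 without low-range arrays. For the DKO minus WT change (0) it was 1 without low-range arrays. The cause was not tested.

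Leaving out 1 array at a time gave 0 to 3 members for DKO week 16 (none if week 0 replicate 1 is left out, 2 if its partner is, and 3 if week 16 replicate 2 is), 0 to 10 for DKO against WT at week 0 (none without WT week 0 replicate 2 or DKO week 0 replicate 2, 10 without DKO week 0 replicate 1, 4 without either DKO week 16 array), 0 to 2 for DKO against KO at week 0 (2 without DKO week 0 replicate 1), 1 to 2 for KO against WT on BaP (2 without KO week 12 replicate 1 or either DKO week 16 array), 19 to 23 for DKO against WT on BaP and 13 to 19 for DKO against KO on BaP. In the other 9 comparisons it was 0 throughout. The shares of all genes called in these fits are not given here, so the counts are not read as results about these genes alone.

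These differences changed sign among the members called, with Top2a and Cdc6. Between DKO and WT on BaP they were 0.30 (Mki67), 0.63 (Top2a) and -0.33 (Cdc6) with quantile normalization. With the number range as a block they were 0.16 (Mki67), 0.24 (Ccna2), 0.64 (Kif11), 0.092 (Kif20a), 0.51 (Mcm4), 0.17 (Top2a) and -1.05 (Cdc6). Without low-range arrays they were 1.03 (Mki67), 0.064 (Bub1b), 0.36 (Kif11), 0.13 (Nusap1), 0.36 (Mcm4), 0.36 (Mcm6) and 1.18 (Top2a). Of the other members not called between DKO and WT, Cdk1 was 0.14, Mcm5 -0.21 and Mcm7 0.024 with quantile normalization, Bub1 0.93, Ccne2 0.48, Cdk1 0.22 and Aurka -0.15 under the number-range block, and Mcm3 0.41, Plk1 0.30, Bub1 0.24 and Mcm5 -0.047 without low-range arrays. Between DKO and KO on BaP, among the members called, Top2a was 0.22 with quantile normalization. With the number range as a block the values were 0.085 (Ccna2), 0.64 (Bub1), 0.35 (Kif11), 0.089 (Kif20a) and 0.085 (Ccne2). Within label numbers 22 to 33 they were 0.32 (Ccna2), 1.73 (Bub1), 0.10 (Bub1b), 0.0082 (Birc5), 1.02 (Kif11), 0.55 (Nusap1), 0.040 (Mcm6) and 0.18 (Ccne2). Without low-range arrays they were 0.41 (Top2a), 0.18 (Nusap1) and 0.50 (Ccne2).

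With the replicate block, 21 members were called lower between DKO and WT on BaP and 15 between DKO and KO, and the replicate numbers do not pair the arrays. The number-range block rests on KO week 12 and DKO week 0, the groups that hold both ranges. Plk1, Mcm3, Mcm5, Cdc6 and Cdt1 had mean signals below that of the median gene, and low signal over background limits them most.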
